A study of Saccharomyces cerevisiae with 17 samples.

Results

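The genes of the yeast proteasome were followed through RNA-seq of wild type and brr6-1 cells of Saccharomyces cerevisiae grown in glucose or shifted to galactose. The set holds 33 genes of the 6572 in the count tables. They are the 14 genes of the 20S core particle, 18 genes of the 19S regulatory particle and RPN4, which encodes the transcription factor that activates them. Members are given by systematic name, as the genes of the particle and its activator, and all 33 passed the filter on low counts.

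Both strains were MATα haploids carrying the alleles ura3-52, lys2-801, ade2-10, leu2-1 and Trp1-63. The wild type strain was YPH399 (WT), and the mutant strain, yDBK168, also carried brr6-1:LEU2:HIS3. BRR6 encodes a membrane protein of the nuclear envelope, and the brr6-1 protein has a lysine in place of an arginine in its putative zinc finger. Cells grew in 2% glucose, or in 2% raffinose with 0.04% sucrose before 2% galactose was added for 2 h. Each of the 4 groups had 2 libraries, A and B, described as biological replicates. Each genotype is 1 strain, so the brr6-1 allele and any other difference between the strains cannot be told apart. Genes of chromosome III stood high in the mutant: 146 of its 176 genes tested rose in glucose, with a median log2 fold change of 1.19, and 137 rose in galactose, with a median of 1.03. None of the 33 members lies on chromosome III, and the part of this difference in the results was not tested.

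The proteasome degrades proteins that have been tagged with ubiquitin. The regulatory particle binds the tagged protein, removes the ubiquitin, unfolds the chain with a ring of ATPases and feeds it into the core, where it is cut. Rpn4 is a short-lived zinc finger protein that binds a shared element in proteasome promoters. It is itself degraded by the proteasome, so that in yeast a loss of proteasome activity raises Rpn4 protein and with it the transcription of the subunit genes.

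In the 20S core, the outer alpha rings, which gate the entry to the chamber, are encoded by SCL1 (YGL011C), PRE8 (YML092C), PRE9 (YGR135W), PRE6 (YOL038W), PUP2 (YGR253C), PRE5 (YMR314W) and PRE10 (YOR362C). The inner beta rings are encoded by PRE3 (YJL001W), PUP1 (YOR157C), PUP3 (YER094C), PRE1 (YER012W), PRE2 (YPR103W), PRE7 (YBL041W) and PRE4 (YFR050C). Of these, PRE3, PUP1 and PRE2 encode the subunits with active sites, of caspase-like, trypsin-like and chymotrypsin-like specificity respectively. The base of the 19S particle holds the ATPases RPT1 (YKL145W), RPT2 (YDL007W), RPT3 (YDR394W), RPT4 (YOR259C), RPT5 (YOR117W) and RPT6 (YGL048C). It also holds the scaffold and docking subunits RPN1 (YHR027C) and RPN2 (YIL075C) and the ubiquitin receptors RPN10 (YHR200W) and RPN13 (YLR421C). The lid members are the deubiquitinase RPN11 (YFR004W), its inactive partner RPN8 (YOR261C) and the scaffold subunits RPN3 (YER021W), RPN5 (YDL147W), RPN6 (YDL097C), RPN7 (YPR108W), RPN9 (YDR427W) and RPN12 (YFR052W). SEM1, which encodes a further lid subunit, is not a member and was counted with the proteasome partners. The activator is RPN4 (YDL020C).

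The libraries held 15059271 to 21637381 reads in genes, and log2 levels of the 2 libraries of a group correlated at r = 0.990 to 0.998 across genes. Counts were scaled by the trimmed mean of M values (TMM), and levels are given as CPM after that scaling, the count as it would be in a library of a common size. The TMM factors were 0.831 and 0.808 in WT in glucose, 0.966 to 1.05 in WT in galactose and brr6-1 in glucose, and 1.20 and 1.17 in brr6-1 in galactose. The α markers MF(ALPHA)1, MF(ALPHA)2, STE3 and SAG1 summed to 189 to 681 CPM, against 7.15 to 15.6 CPM for the a markers MFA1, MFA2, STE2 and BAR1, of which MFA2 had 0 counts in both WT glucose libraries. BRR6 mRNA itself was higher in the mutant strain, at 28.0 and 29.5 CPM in WT and 98.5 and 103 CPM in brr6-1 in glucose, and counts per gene cannot show the point mutation. In such bulk data, fewer cells that express a gene and less of its RNA per cell cannot be told apart.

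Subunits that sit together in 1 particle had counts that spanned 79.7-fold per kilobase of gene length in WT in glucose. The highest were PUP3 at 1076, PRE2 at 977, RPN8 at 958 and PUP2 at 880 CPM per kb. The lowest were RPN12 at 13.5, PRE1 at 14.1, SCL1 at 34.8 and RPN6 at 67.9 CPM per kb, and RPN4 stood at 49.9 CPM per kb. The lowest subunits, which set that span, had 118 and 163 reads for PRE1 and 157 and 214 reads for RPN12 in the WT glucose libraries, and the part of read mapping and counting in these low values was not tested. The 6 ATPases were more even, with the highest 2.28 times the lowest, from RPT3 at 344 to RPT1 at 786 CPM per kb. Neighbours in the order lay close together: PRE1 and RPN12 overlapped between libraries, as did RPN10, RPT3 and RPN13. The median over the 32 subunits was 422 CPM per kb in WT in glucose, 321 in WT in galactose, 325 in brr6-1 in glucose and 275 in brr6-1 in galactose. Gene length is the span in the gene table, which for PRE3 includes its intron, and no member overlaps another gene in that table.

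**Figure D1:**
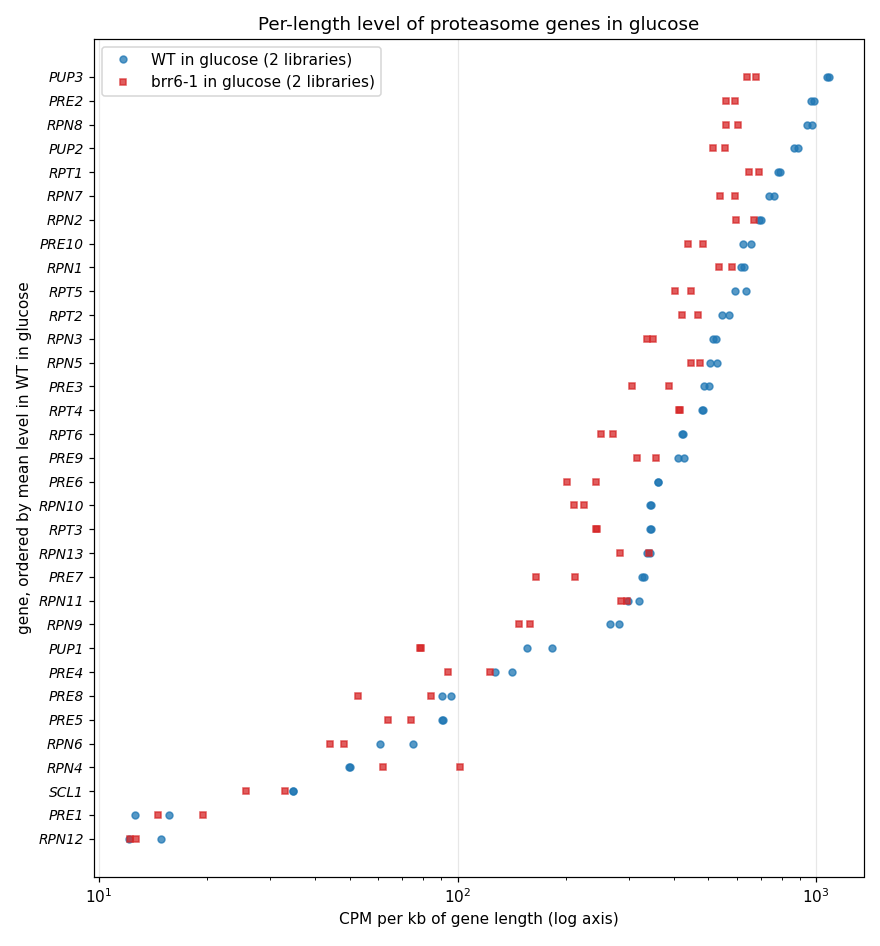
Level of each of the 33 genes in CPM per kb of gene length (log axis) in the 2 WT (circles) and 2 brr6-1 (squares) libraries grown in glucose, ordered by the WT mean. PUP3 is highest at 1076 and RPN12 lowest at 13.5 CPM per kb in WT, and the brr6-1 squares lie to the left of the WT circles for most subunits and to the right for RPN4.

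In glucose, 17 of the 33 genes fell in brr6-1 against WT and only RPN4 rose, while 15 did not pass the test. All genes that fell encode subunits, and they come from every subassembly. The largest fall was that of PUP1, and PRE1 was the only subunit with a value above 0. The share of members called lower was 51.5%, against a background of 19.5% of the 6297 genes tested, and the share called higher was 3.03% against 16.7%. The median log2 fold change of the members was -0.44, against 0.03 over all genes tested. Other genes at a similar level also stood low. Of 1417 genes with a mean level between the lower and upper quartile of the subunits, 34.9% fell and 10.4% rose. Their median was -0.24. Without regard to a test, 29 members had both brr6-1 libraries below both WT libraries, 1 had them above and 3 overlapped; over all genes the shares were 36.8% below and 38.3% above.

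The count depended on scaling and on the WT libraries. It was 10 with library totals in place of TMM, 11 with cyclic loess, 9 without WT glucose library A and 8 without library B. In raw reads, members made up 1.41% and 1.39% of gene counts in WT in glucose and 1.33% and 1.34% in brr6-1 in glucose. PRE2, PRE6, PUP1, PUP2, PUP3, RPT6, RPN8 and RPN9 were called lower in each of 18 alternative analyses.

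**Figure D2:**
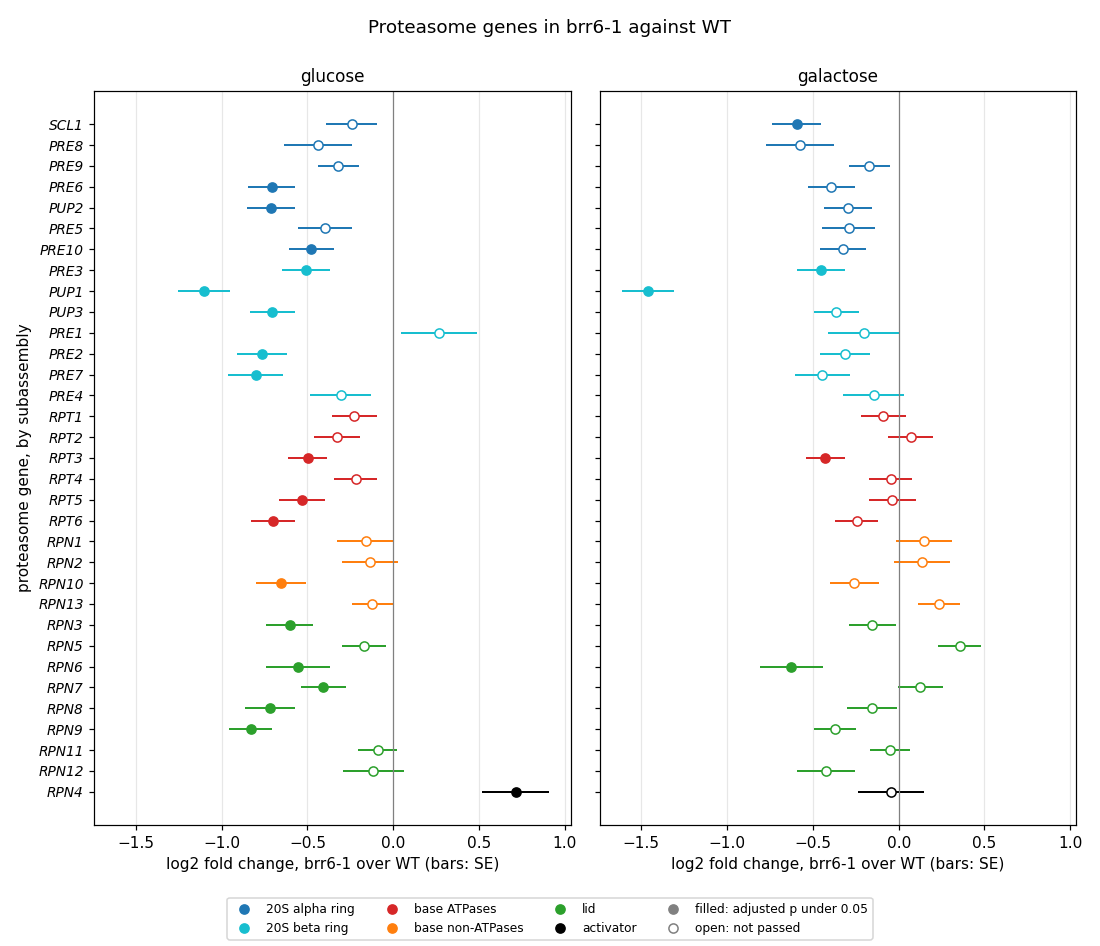
Log2 fold change of brr6-1 over WT for each member in glucose (left) and galactose (right), with bars of 1 standard error, coloured by subassembly; filled points passed an adjusted p of 0.05 over all genes. In glucose 17 subunits are filled on the left of 0 and RPN4 on the right at 0.71, and in galactose 5 are filled, with PUP1 lowest at -1.46.

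Among the catalytic rings, 5 of the 7 beta genes fell in glucose. PUP1 (chromosome XV, 630966 to 631751) read 144 and 123 CPM in WT and 62.3 and 61.8 CPM in brr6-1 in glucose. In galactose it read 146 and 169 CPM in WT and 49.8 and 64.5 CPM in brr6-1. All brr6-1 libraries lay below all WT libraries, with no overlap in either sugar. The log2 fold change was -1.10 ± 0.15 (SE, n = 2 against 2, edgeR adjusted p = 0.0014) in glucose and -1.46 ± 0.15 (adjusted p = 1.7e-04) in galactose. PUP1 was called in both sugars under all 18 alternatives. Falls in glucose were also called for PRE7 (-0.80 ± 0.16), PRE2 (-0.76 ± 0.15), PUP3 (-0.70 ± 0.13) and PRE3 (-0.51 ± 0.14), so that all 3 genes of active-site subunits were among them. PRE1 (chromosome V, 177835 to 178431) read 7.53 and 9.33 CPM in WT and 11.6 and 8.75 CPM in brr6-1. Its libraries overlapped, and its value of 0.27 ± 0.22 did not pass the test (adjusted p = 0.35).

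Of the 7 alpha ring genes 3 fell in glucose, PUP2, PRE6 (-0.71 ± 0.14) and PRE10 (-0.48 ± 0.13). PUP2 (chromosome VII, 998358 to 999140) read 680 and 697 CPM in WT and 405 and 436 CPM in brr6-1, a log2 fold change of -0.71 ± 0.14 (adjusted p = 0.0058). The groups were well apart. SCL1 (chromosome VII, 474489 to 475247) showed the value nearest to 0 of the ring, -0.24 ± 0.15 (adjusted p = 0.21), with 26.4 CPM in each WT library and 19.5 and 25.1 CPM in brr6-1. The ring's other values were -0.44 for PRE8, -0.40 for PRE5 and -0.32 for PRE9, none past the threshold.

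Of the 18 regulatory particle members 9 fell in glucose, 3 of the 6 ATPases, 1 of the 4 other base members and 5 of the 8 lid members. RPT6 (chromosome VII, 410069 to 411286) read 515 and 518 CPM in WT and 305 and 330 CPM in brr6-1, a log2 fold change of -0.70 ± 0.13 (adjusted p = 0.0041). RPT4 (chromosome XV, 812395 to 813708), the ATPase that moved least, read 633 and 636 CPM in WT and 544 and 546 CPM in brr6-1. Its groups did not overlap, but its value of -0.22 ± 0.12 did not pass (adjusted p = 0.18). RPT5 (-0.53 ± 0.14) and RPT3 (-0.50 ± 0.11) also fell.

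Of the ubiquitin receptors of the base, RPN10 passed the test in glucose and RPN13 did not. RPN10 (chromosome VIII, 499079 to 499885) read 278 and 278 CPM in WT and 171 and 182 CPM in brr6-1, a log2 fold change of -0.66 ± 0.15 (adjusted p = 0.0088). RPN13 (chromosome XII, 965090 to 965560) read 162 and 159 CPM in WT and 134 and 161 CPM in brr6-1, which overlap, and its value was -0.12 ± 0.12 (adjusted p = 0.44). The difference between the receptors was not tested. The large scaffold subunits RPN1 and RPN2 stood at -0.16 and -0.13, neither past the threshold.

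In the lid, RPN9 (chromosome IV, 1322205 to 1323386) read 314 and 333 CPM in WT and 176 and 188 CPM in brr6-1, a log2 fold change of -0.83 ± 0.12 (adjusted p = 0.0019). RPN8 (-0.72 ± 0.15), RPN3 (-0.60 ± 0.14), RPN6 (-0.55 ± 0.19) and RPN7 (-0.41 ± 0.13) also fell. The deubiquitinase RPN11 (chromosome VI, 153393 to 154313) read 275 and 296 CPM in WT and 263 and 274 CPM in brr6-1. Its libraries met with a gap of under 2 CPM, and its value of -0.09 ± 0.11 did not pass (adjusted p = 0.55).

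RPN4, the activator, was the only member to rise in brr6-1 in glucose. RPN4 (chromosome IV, 415113 to 416708) read 79.9 and 79.3 CPM in WT in glucose, and 162 and 99.1 CPM in brr6-1 in glucose. Both mutant libraries were above both WT libraries, and they differed from each other more than those of any other group. The log2 fold change was 0.71 ± 0.20 (adjusted p = 0.019). Without brr6-1 glucose library A, without WT glucose library A or without WT glucose library B the call was lost, and over 18 alternatives the value ranged from 0.31 to 1.03 and the adjusted p reached 0.13. In galactose RPN4 read 134 and 127 CPM in WT and 135 and 117 CPM in brr6-1, and the libraries overlapped (-0.05 ± 0.19, adjusted p = 0.87). Its protein was not measured.

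**Figure D3:**
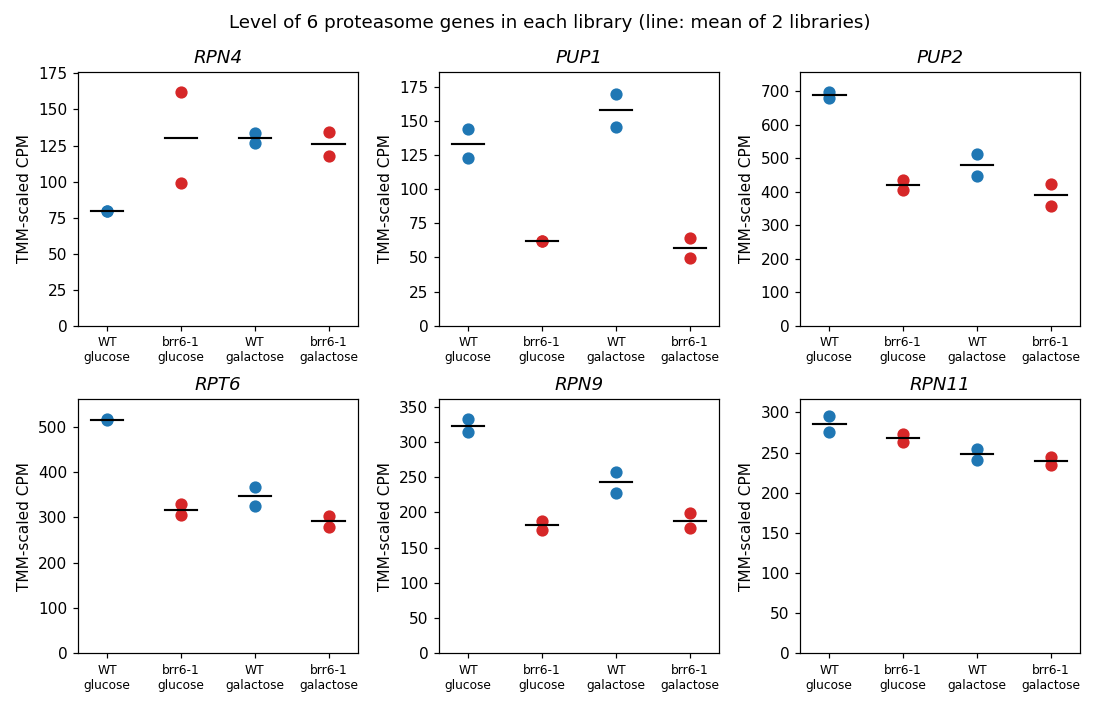
TMM-scaled CPM of RPN4, PUP1, PUP2, RPT6, RPN9 and RPN11 in each of the 8 libraries (points; WT blue, brr6-1 red), with the mean of each group as a line. RPN4 is lowest in WT in glucose, at 79.9 and 79.3 CPM, PUP1 is lower in brr6-1 in both sugars, and RPN11 reads 234 to 296 CPM throughout.

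The summed level of the core genes stood lower in brr6-1 in both sugars. The 14 core genes summed to 4338 and 4428 CPM in WT and 2708 and 2970 CPM in brr6-1 in glucose, and to 3092 and 3467 CPM in WT and 2399 and 2663 CPM in brr6-1 in galactose. The 18 regulatory particle genes summed to 12585 and 12760 CPM in WT and 10276 and 9813 CPM in brr6-1 in glucose. In galactose those sums were 9322 and 9183 CPM in WT and 8763 and 9778 CPM in brr6-1, which overlap. The ratio of the core sum to the regulatory particle sum does not change with a scaling factor per library. It was 0.345 and 0.347 in WT and 0.264 and 0.303 in brr6-1 in glucose, and 0.332 and 0.378 in WT and 0.274 and 0.272 in brr6-1 in galactose. All 4 brr6-1 libraries lay below all 4 WT libraries, and how often ratios of other gene sums do so was not counted. A trend with expression level or gene length does not cancel in this ratio, which was not recomputed under cyclic loess. No test of the ratio was run, since an exact permutation test of 2 against 2 libraries cannot reach a p of 0.05, and the sums weigh abundant genes most.

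**Figure D4:**
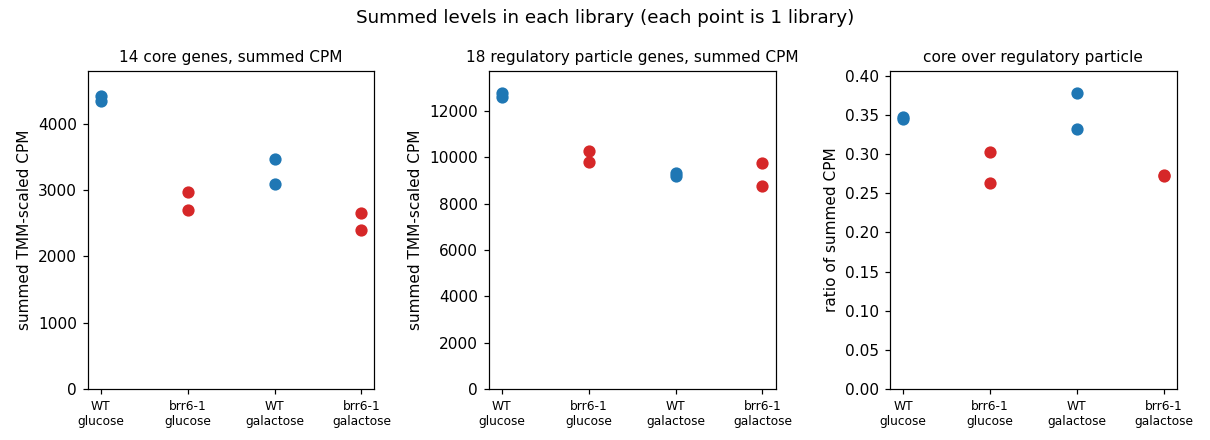
Summed TMM-scaled CPM of the 14 core genes (left) and the 18 regulatory particle genes (middle), and their ratio (right), in each of the 8 libraries. The ratio is 0.332 to 0.378 in the 4 WT libraries and 0.264 to 0.303 in the 4 brr6-1 libraries.

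In galactose, 5 of the 33 genes fell in brr6-1 against WT and none rose. They were PUP1, RPN6 (-0.63 ± 0.18), SCL1 (-0.59 ± 0.14), PRE3 (-0.45 ± 0.14) and RPT3 (-0.43 ± 0.11), 3 of them core genes. The share called lower was 15.2%, against a background of 14.3%, so that the count is near the background; the background called higher was 8.29%. The median was -0.25, against 0.01 over all genes tested and -0.04 over the 1417 other genes at a similar level. Of those 1417 genes, 18.1% fell and 10.2% rose. All 14 core genes had values below 0, with a median of -0.34, and of the 18 regulatory particle genes 12 did, with a median of -0.07. The share of all genes below 0 was not counted, and the difference between core and regulatory particle was not tested. SCL1 read 35.6 and 37.9 CPM in WT and 23.4 and 25.3 CPM in brr6-1, with no overlap. The highest value was that of RPN5, a lid scaffold, at 0.35 ± 0.13 (adjusted p = 0.068).

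Of the genes whose library values in glucose are given above, PUP1 and SCL1 were called in galactose and the others were not. PUP2 read 446 and 512 CPM in WT and 357 and 423 CPM in brr6-1 (-0.30 ± 0.14, adjusted p = 0.15). RPT6 read 325 and 368 CPM in WT and 280 and 304 CPM in brr6-1 (-0.25 ± 0.13, adjusted p = 0.18). RPN9 read 228 and 258 CPM in WT and 177 and 199 CPM in brr6-1 (-0.37 ± 0.12, adjusted p = 0.056). These 3 kept the order seen in glucose, with brr6-1 below WT and no overlap, but did not pass the test here. The ubiquitin receptor RPN10 read 185 and 249 CPM in WT and 176 and 186 CPM in brr6-1, which overlap (-0.26 ± 0.15, adjusted p = 0.22). RPN13 read 107 and 104 CPM in WT and 124 and 125 CPM in brr6-1, with brr6-1 above WT and no overlap. It did not pass either (0.24 ± 0.12, adjusted p = 0.18). RPT4, RPN11 and PRE1, which had not passed in glucose, did not pass here either. RPT4 read 555 and 545 CPM in WT and 510 and 555 CPM in brr6-1. RPN11 read 241 and 254 CPM in WT and 234 and 244 CPM in brr6-1. The libraries of both genes overlapped, and so did those of the beta ring gene PRE1, at 15.7 and 12.2 CPM in WT and 13.5 and 10.8 CPM in brr6-1.

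Of the 5 calls in galactose, PRE3, PUP1, RPN6 and RPT3 were also among the 18 calls in glucose. The same overlap was not counted over all genes, and both comparisons set the same strains against each other. Among the 5 galactose calls, PUP1 was the only one that held under all 18 alternatives. The count was 1 without WT galactose library B, brr6-1 galactose library A or brr6-1 galactose library B, and 2 without WT glucose library A or B; it was 10 without WT galactose library A and 9 without brr6-1 glucose library A or B. With library totals there were 4 calls, 3 higher and 1 lower.

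In WT, 16 members fell and 4 rose in galactose against glucose, and 13 did not pass. The share called lower was 48.5%, against a background of 20.5%, and the share called higher was 12.1% against 24.3%. The median was -0.39, against 0.10 over all genes. Of the 1417 other genes at a similar level, 41.6% fell and 12.8% rose, with a median of -0.28. The members' share called higher was near that of these genes. The 4 that rose were RPN4, PRE1 (0.73 ± 0.22), RPN12 (0.66 ± 0.17) and SCL1 (0.47 ± 0.14), the last 3 being the subunits with the lowest counts per length. The comparison uses the same WT glucose libraries as that of the strains in glucose.

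**Figure D5:**
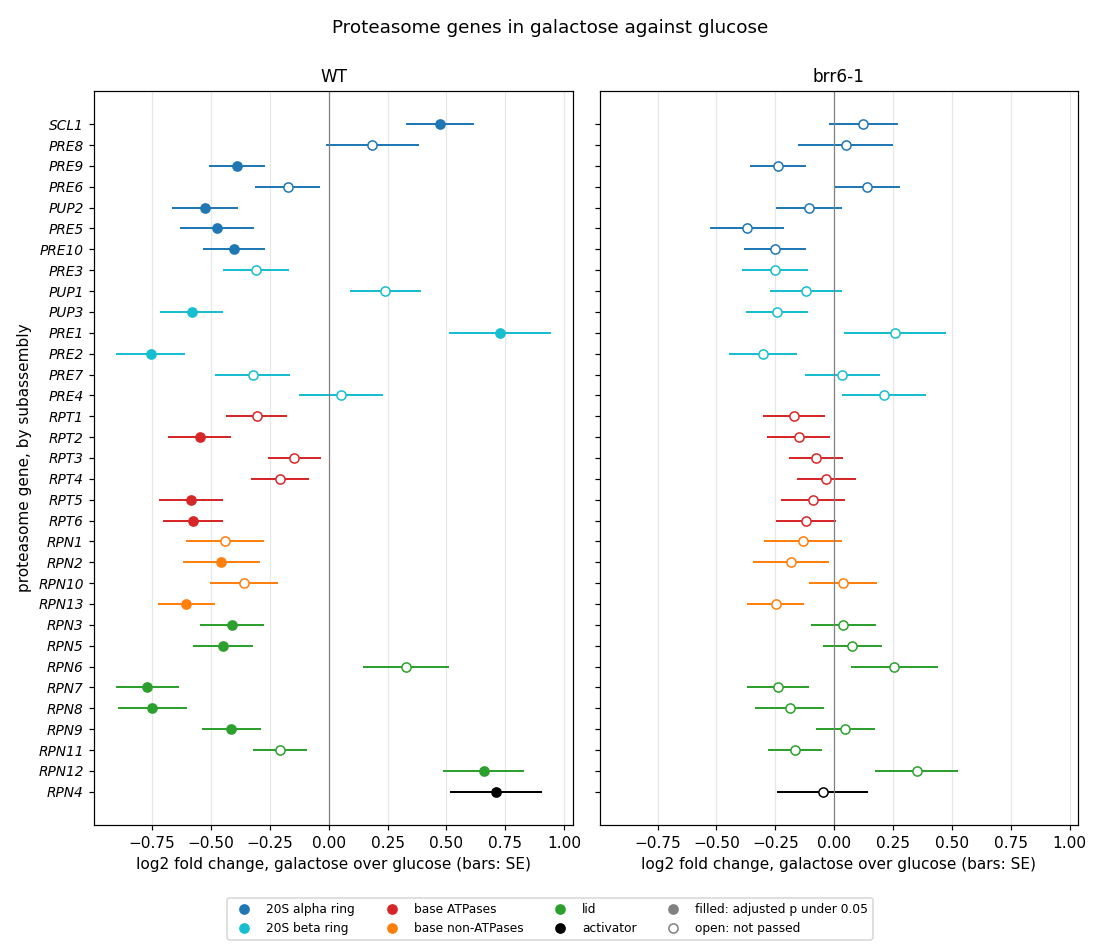
Log2 fold change of galactose over glucose for each member in WT (left) and brr6-1 (right), with bars of 1 standard error; filled points passed an adjusted p of 0.05 over all genes. In WT 16 subunits are filled below 0 and 4 genes above it, and in brr6-1 all points are open, between -0.37 and 0.35.

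The members that fell were 4 alpha ring, 2 beta ring, 3 ATPase, 2 other base and 5 lid genes. RPN7 (chromosome XVI, 742454 to 743743), a scaffold subunit of the lid, showed the largest change, from 953 and 984 CPM in glucose to 556 and 580 CPM in galactose (-0.77 ± 0.13, adjusted p = 0.0013). In brr6-1 it read 764 and 696 CPM in glucose and 593 and 645 CPM in galactose, also without overlap between the sugars, but that change did not pass (-0.24 ± 0.13, adjusted p = 0.27). PRE2 (-0.76 ± 0.15), RPN8 (-0.75 ± 0.15), RPN13 (-0.60 ± 0.12), RPT5 (-0.59 ± 0.14), PUP3 (-0.58 ± 0.13) and RPT6 (-0.58 ± 0.13) followed. PUP1, which fell most between strains, stood at 0.24 ± 0.15 (adjusted p = 0.21). RPN4 rose from 79.9 and 79.3 CPM to 134 and 127 CPM, a log2 fold change of 0.71 ± 0.20 (adjusted p = 0.014). That call was lost without WT glucose library A, WT glucose library B or WT galactose library A.

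The WT sugar calls were the most dependent on scaling. With cyclic loess, which removes trends with expression level, 3 members were called, 1 higher and 2 lower, and the members' median was 0.014. With library totals there were 9 calls, 6 higher and 3 lower. Leaving out WT glucose library A, WT glucose library B or WT galactose library A gave 10, 9 and 13 calls, and no member's call in this comparison held under all 18 alternatives.

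In brr6-1, galactose against glucose gave no call among the 33 members, against a background of 8.75% of genes called higher and 7.26% lower. Of the 1417 other genes at a similar level, 7.06% rose and 13.9% fell. By edgeR 1 member had an unadjusted p under 0.05, and DESeq2 called 0. Values ran from -0.37 to 0.35, with a median of -0.11, against 0.04 over all genes and -0.12 over the 1417 other genes at a similar level. The largest was that of the alpha ring gene PRE5 (chromosome XIII, 901709 to 902413), at 45.1 and 52.1 CPM in glucose and 40.2 and 35.1 CPM in galactose, a log2 fold change of -0.37 ± 0.16 (adjusted p = 0.15). PRE5 read 63.7 and 64.3 CPM in WT in glucose and 39.6 and 52.7 CPM in WT in galactose, and there it fell (-0.47 ± 0.16, adjusted p = 0.031).

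No member passed the test of whether the brr6-1 effect differed between the sugars, against a background of 1.65% of genes called higher and 3.94% lower. Of the 1417 other genes at a similar level, 3.46% were called higher and 2.47% lower. By edgeR 8 members had an unadjusted p under 0.05, and DESeq2 called 2, RPN5 and RPN7. The log2 difference, the effect in galactose minus that in glucose, was above 0 for 26 of 33 members, with a median of 0.27 against -0.05 over all genes and 0.15 over the 1417 other genes at a similar level. The largest in size was that of RPN4, -0.76 ± 0.27 (adjusted p = 0.12), which passed only without brr6-1 glucose library B. The smallest adjusted p was 0.10, for RPN5 at 0.53 ± 0.18. A call in glucose that is missing in galactose is therefore not shown to differ between the sugars.

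Assembly chaperones and proteasome partners, 17 genes, moved in both directions. In glucose 2 rose and 5 fell in brr6-1, which is 11.8% and 29.4% of the list, against 16.7% and 19.5% of all genes. FUB1, which encodes a proteasome inhibitor-like protein, lies on chromosome III and rose by 0.79 ± 0.14, and BLM10, an alternative activator of the core, rose by 0.48 ± 0.16. IRC25, an alpha ring assembly chaperone, fell by 0.74 ± 0.19. ADD66, another core assembly chaperone, fell by 0.51 ± 0.17 and UBP6, a deubiquitinase bound to the base, by 0.49 ± 0.14. SEM1, the lid subunit gene counted in this list, fell by 0.44 ± 0.12. In galactose 1 rose, FUB1 by 1.21 ± 0.14, and 3 fell, IRC25 by 0.75 ± 0.18, POC4, the partner of Irc25, by 0.66 ± 0.18 and SPG5 by 0.57 ± 0.14; the shares of 5.88% and 17.6% compare with 8.29% and 14.3% of all genes. UMP1, the maturation factor of the core, did not pass in either sugar (0.59 ± 0.22, adjusted p = 0.060 in glucose, and 0.52 ± 0.22, adjusted p = 0.11 in galactose). TMA17, an ATPase-dedicated assembly chaperone that in yeast is induced by stress, rose with galactose in WT by 1.51 ± 0.22 and in brr6-1 by 1.00 ± 0.22. SPG5 rose with galactose in both strains, by 0.65 ± 0.14 and 0.52 ± 0.14, PBA1 rose in WT by 0.54 ± 0.19, and RPN14 fell in WT by 0.47 ± 0.11. The shares that rose and fell were 17.6% and 5.88% in WT, against 24.3% and 20.5% of all genes, and 11.8% and 0% in brr6-1, against 8.75% and 7.26%.

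Of 21 genes of the ubiquitin pathway and its shuttles, 2 rose and 2 fell in brr6-1 in glucose, 9.52% each way, which is below the 16.7% and 19.5% of all genes. They were the ligases UBR1 (0.42 ± 0.14) and TOM1 (0.40 ± 0.14), and UFD1 of the Cdc48 complex (-0.56 ± 0.12) and the conjugating enzyme RAD6 (-0.43 ± 0.12). In galactose 3 fell, the polyubiquitin gene UBI4 (-0.49 ± 0.12), the shuttle DDI1 (-0.46 ± 0.15) and TOM1 (-0.44 ± 0.14), a share of 14.3%, equal to the background. With galactose in WT 4 rose, led by the ligase HRD1 of the endoplasmic reticulum (1.14 ± 0.19), TOM1 (0.77 ± 0.14) and UBI4 (0.74 ± 0.12), and 2 fell, CDC48 (-0.54 ± 0.16) and RAD6 (-0.38 ± 0.12), shares of 19.0% and 9.52% against 24.3% and 20.5% of all genes. In brr6-1 the conjugating enzyme gene UBC5 was the only one of the list that rose with galactose, by 1.14 ± 0.34, a share of 4.76% against 8.75%.

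Among 6 regulators of RPN4, 2 rose in brr6-1 in glucose, 33.3% against 16.7% of all genes, a list too short to read a share from. UBR2, the ligase that marks Rpn4 protein for degradation, read 273 and 290 CPM in WT and 435 and 376 CPM in brr6-1, with no overlap, a log2 fold change of 0.53 ± 0.15 (adjusted p = 0.023). HSF1, the heat shock transcription factor, read 26.2 and 26.4 CPM in WT and 34.4 and 41.3 CPM in brr6-1 (0.53 ± 0.18, adjusted p = 0.045). Both calls were lost without WT glucose library A, WT glucose library B or brr6-1 glucose library A. That of HSF1 was also lost without WT galactose library B or brr6-1 glucose library B. It was lost as well with DESeq2's size factors and by its Wald test. The UBR2 partner MUB1 (0.15) and the transcription factors YAP1 (0.06), PDR1 (0.28) and PDR3 (-0.17) did not pass. In galactose PDR3 fell by 0.62 ± 0.12 in brr6-1, and with galactose in WT it rose by 0.64 ± 0.12 and HSF1 by 0.68 ± 0.18 (33.3% of the list, against 24.3%). YAP1 and PDR1 passed in none of the 5 comparisons. Of 37 calls over these 3 lists, 6 held under every alternative: FUB1 in galactose, and TMA17, HRD1, TOM1, UBI4 and PDR3 with galactose in WT. FUB1 is absent from the fit without chromosome III genes, so its call rests on 17 alternatives. Its rise of 1.21 in galactose stood beside a median of 1.03 over the 176 chromosome III genes tested.

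The study also precipitated FLAG-tagged Brr6 fragments with their bound DNA. Its peak table lists 22 peaks with 30 transcripts, and 0 of the 33 members are among them. With 30 transcripts listed against 6572 genes in the count tables, that count says nothing particular about the members.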

How the data were processed

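Total RNA, with ribosomal RNA removed, went into single-end libraries that keep strand, per the labels' protocols. The deposited RNA tables hold the authors' raw read counts for each gene, from cutadapt, TopHat and HTSeq with genome R64, per the submitters' processing notes. HTSeq's strand option was not given in the sources used here, so antisense reads cannot be told apart from a gene's own. The 5 total lines of HTSeq were set aside: 53.5 to 65.3% of lines were alignments that were not unique, at most 0.0890% were ambiguous, and 23.4 to 37.5% of the remaining reads fell outside genes. That last share differed by group. It was 23.4 and 24.1% in WT and 28.5 and 29.2% in brr6-1 in glucose. In galactose it was 37.3 and 26.7% in WT and 37.5 and 36.2% in brr6-1. Its part in the results was not tested. From the peak table only the authors' transcript names were used, and its 24 other columns of values for single samples were not. Promoter sequences were not analysed here.

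R64 gene names were found for 5898 of 6572 IDs. With filterByExpr (minimum count 10), 6297 genes were kept. After TMM scaling, edgeR's quasi-likelihood F test was run in a single model of the 4 groups and 8 libraries, leaving 4 residual degrees of freedom. The threshold was a Benjamini-Hochberg adjusted p of 0.05 over all genes tested, in each of 5 comparisons. A standard error is the log2 fold change divided by the square root of F. The p-values set a difference against the spread between the 2 libraries of a group. That spread is estimated per gene over all 4 groups together, with help from the other genes.

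Members and gene lists were chosen with earlier results of these data known, so their counts are descriptions and no list was tested. Values in all libraries are given for RPN4, for the members with the lowest and highest glucose fold change in each subassembly, and for the largest change in each other comparison. Up to 3 called genes per other list and comparison are named, and UMP1, UBR2, YAP1, HSF1, PDR1 and PDR3 throughout. MUB1, SEM1, the genes at the ends of the order of levels and the comparison with genes at a similar level were added after values were seen. Alternatives were other scalings, filters and tests, a replicate block, and libraries or chromosome III genes left out. The fit was tested on simulated data. Tests ran in DESeq2 1.42.0, limma 3.58.1 and edgeR 4.0.16 under R 4.3.3, and figures were drawn with matplotlib 3.10.9 in Python 3.11.15.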

Additional observations from a re-analysis of the deposited data

Results flagged for a closer look

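For 2 genes of the lists beside the proteasome genes, the effect of brr6-1 differed between the sugars by a test of the difference itself (edgeR's quasi-likelihood test, adjusted over all genes). TOM1, a ubiquitin ligase, differed by -0.84 ± 0.19 on the log2 scale (adjusted p = 0.038): it read 350 and 408 CPM in WT and 527 and 470 CPM in brr6-1 in glucose, and 647 and 642 CPM in WT and 492 and 458 CPM in brr6-1 in galactose. The call held in 11 of 17 alternatives and was lost without WT glucose library A, WT glucose library B, WT galactose library A, brr6-1 glucose library A, brr6-1 galactose library A or brr6-1 galactose library B. BRR6 differed by 1.34 ± 0.22 (adjusted p = 0.011), with 24.4 and 19.1 CPM in WT and 216 and 169 CPM in brr6-1 in galactose. None of the 33 proteasome genes met this test. TOM1 was the only call among the 21 genes of the ubiquitin list, 4.76% lower, near the 3.94% of all genes. BRR6 is the gene altered in the mutant strain, and 1.65% of all genes were called higher. The 17 assembly chaperones and partners, the 6 RPN4 regulators, the 4 α markers and the 4 a markers gave no call.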

How the results depend on the processing

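The number of members called out of 33 was recomputed under other scalings, filters, tests and libraries. In glucose it was 18, with 10 under library totals and 11 under cyclic loess, and 8 to 21 with 1 library left out. In galactose it was 5, with 8 by DESeq2's Wald test, 9 with the replicate block and 3 with only the 4 libraries compared, and 1 to 10 with 1 library left out. Galactose against glucose gave 20 in WT, with 9 under library totals and 3 under cyclic loess, and 9 to 22 with 1 library left out. It gave 0 in brr6-1, with 1 under library totals (RPN12, higher) and 0 with any library left out. The difference between sugars gave 0, with 2 by DESeq2 and 0 to 2 with 1 library left out. The members' median changed sign under cyclic loess in WT (0.014) and in brr6-1 (0.11), and under library totals in brr6-1 (0.10). Called values that changed sign were RPN2 (0.18), RPN3 (0.057) and RPN5 (0.014), all under cyclic loess in WT. Library totals moved the median of all genes to 0.36 in glucose, 0.25 in galactose, 0.40 in WT and 0.25 in brr6-1. Relative to the median of all genes, the members' median in glucose was -0.47 with TMM, -0.46 with library totals and -0.24 with cyclic loess. It was below 0 under all 18 alternatives. In WT the 3 values were -0.49, -0.49 and 0.02. A scaling factor per library shifts both medians alike, so the values with TMM and library totals had to be close. A sign change of a value that passed in neither analysis was not counted. The cause of these changes was not tested. The labels do not say whether letters A and B mark shared days or cultures. The correlation of same-letter deviations was 0.003, -0.08, 0.07 and 0.17 in the first 4 comparisons, which cannot settle whether they do. With the replicate block there were 18, 9, 20, 0 and 0 calls. Depth limits PRE1 and RPN12 most, with 118 to 368 reads per library.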
